A study of Mus musculus with 9 samples.

Results

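Retinoid binding and metabolism genes were followed through 9 RNA-seq libraries of sorted mouse lung cells. The set holds 9 of the 54449 genes of the deposited table: the retinol transporter gene Stra6, the retinoic acid binding proteins Crabp1 and Crabp2, the enzymes of retinoic acid synthesis Aldh1a1, Aldh1a2 and Aldh1a3, the nuclear receptors Rarb and Rarg, and Cyp26b1, an enzyme of retinoic acid breakdown. These genes were chosen by name, with their levels in these libraries already known. Their values are therefore given as a description, without a test of their own.

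The cells were labelled lung eosinophils of C57BL/6 mice, with no genetic change named for any group. Saline alone was given to the mice behind the libraries labelled naive (n = 3). The libraries labelled Siglec-F high (n = 3) and Siglec-F int (n = 3) came from mice with PyMT tumour cells, which derive from mouse mammary tumours, delivered through the tail vein, and differ by the amount of Siglec-F on the sorted cells. Each library pooled 3 to 4 mice, so that n counts pools, and p-values measure the spread between pools. Reads per library ran from 2205949 to 12495639. Values are deposited normalized counts, given per library or as mean ± SD over n = 3. Differences are log2 fold changes of (normalized count + 1) ± SE, a scale on which differences of scarce genes come out too small.

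The labelled cell type was checked against its markers. Siglecf stood between 3.58 and 31.3 normalized counts in the 9 libraries, Ccr3 was at 0 in all libraries labelled naive and at most 24.1 elsewhere, and Epx was at 0 in 6 of 9 libraries. These 3 genes help define eosinophils, so the labels are used here as names of libraries only. The 11 eosinophil markers together summed to 12240 to 18014 in naive, 2951 to 8183 in Siglec-F high and 5362 to 5701 in Siglec-F int, with Ccr3 and Prg3 at 0 in naive. Such a sum follows its most abundant genes. Of the 11, 7 averaged at least 5 and were tested. In each tumour group 0 of these lay wholly above naive and 1 wholly below. Their median log2 difference from naive was 0.50 in high and -0.81 in int. Of all tested genes, 20.2% lay wholly above naive and 26.3% below in high, and 23.3% and 27.6% in int. A list of 14 pigment cell markers summed to 80607 to 85556 normalized counts in the libraries labelled naive, against 874 to 1674 in Siglec-F high and 1151 to 2025 in Siglec-F int. In Siglec-F high library 1, genes rich in G and C were low compared with libraries 2 and 3 of its group. Siglec-F int library 2 held the highest sum of 12 monocyte and macrophage markers, 94079 against 22791 to 28359 in the other int libraries. Values without these libraries are given beside the results that they moved most.

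Retinol, vitamin A, travels in blood bound to its carrier protein RBP4 and can enter a cell through STRA6. Inside the cell, dehydrogenases oxidise retinol to retinal and the ALDH1A enzymes oxidise retinal to retinoic acid, which cellular binding proteins carry to nuclear receptors (RAR, paired with RXR) or to CYP26 enzymes that degrade it. In the lung, retinoic acid takes part in branching and in the formation of alveoli, where fibroblasts store retinoids.

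RefSeq sequences of the GRCm38.p6 build just before the gene start were at hand for 7 of the 9 genes (12 windows of 250 bases). They are shown for the genes with the largest positive and the largest negative difference of Siglec-F int from naive, Crabp1 and Cyp26b1, and for Rarb, the receptor gene known for a retinoic acid response element. The bases before Crabp1 (chr9:54764498-54764747, plus strand) are given with the 5 matches to GGGCGG on either strand in capitals. The bases before Cyp26b1 (chr6:84593909-84594060, minus strand) stop where the outermost GENCODE transcript begins, with TATAAA, 41 to 36 bases before that start, in capitals. The direct repeat of Rarb (chr14:16575513-16575529, minus strand) has its 6-base elements in capitals.
Crabp1: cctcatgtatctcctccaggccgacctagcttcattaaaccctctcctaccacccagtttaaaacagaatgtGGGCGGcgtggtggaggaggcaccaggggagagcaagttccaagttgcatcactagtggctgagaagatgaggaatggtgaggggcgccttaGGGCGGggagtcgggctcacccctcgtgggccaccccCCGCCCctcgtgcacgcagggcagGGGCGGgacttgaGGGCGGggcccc
Cyp26b1: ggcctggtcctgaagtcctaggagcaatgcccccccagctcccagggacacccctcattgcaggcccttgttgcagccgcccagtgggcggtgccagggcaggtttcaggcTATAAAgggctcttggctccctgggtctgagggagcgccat
Rarb: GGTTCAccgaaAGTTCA

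Among 32851 such windows of all genes, 32.7% held GGGCGG and 12.4% held TATAAA on either strand. The 6-base element that nuclear receptors bind was searched as AGGTCA and also in the form AGTTCA. The versions GGGTCA and likewise GGTTCA were accepted too, on either strand. A direct repeat of the element spaced by 5 bases (DR5) was found in 29 windows (0.0883%), and among the retinoid genes only in the window of Rarb. It lies 53 to 37 bases before the RefSeq start, within the 5′ UTR of the GENCODE transcripts that begin at 16575543 and 16575827. The same repeats spaced by 1 base (0.164% of all windows) or 2 bases (0.174%) were in none of the 12 windows. A match is a stretch of letters and no measure of binding, and the single element, which the longer repeats contain, was in 38.6% of all windows.

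Stra6, the receptor that takes up retinol from RBP4 (ENSMUSG00000032327.14; chromosome 9, 58063788 to 58153996, GRCm38), was nearly without reads in the libraries labelled naive and detected in all others. It stood at 1.15, 2.61 and 0 normalized counts in naive libraries 1, 2 and 3. In the Siglec-F high libraries it stood at 11.0, 43.0 and 89.6, and in the Siglec-F int libraries at 59.1, 32.9 and 54.7. Neither tumour group overlapped with naive, and the lowest of these 6 libraries was high library 1. The naive group held 2 reads of Stra6 in all, the high group 187 and the int group 361. High exceeded naive by a ratio of 61.0 (95% counting interval 16.7 to 507) and int by 59.9 (16.4 to 496). These intervals cover the error of counting the pooled reads only and leave out the spread between libraries. High and int, at 47.8 ± 39.5 and 48.9 ± 14.0, differed by less than their spread (-0.42 ± 0.83), and the sign turned to 0.38 without high library 1. Relative to naive, Stra6 differed by 4.19 ± 0.83 in high, and by 4.99 without that library. Ccdc33 overlaps Stra6 on the opposite strand and had at most 7.27 normalized counts in any library, and Gm16131, which overlaps it on the same strand, was at 0 in all 9. Whether the counting used strand is not given in the sources used here.

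Crabp1, which holds retinoic acid in the cytoplasm (ENSMUSG00000032291.8; chromosome 9, 54764748 to 54773110), was scarce in the libraries labelled naive and abundant in most of the others. Its values were 12.6, 39.1 and 7.52 in the libraries labelled naive, 65.8, 1901 and 868 in Siglec-F high and 1324, 371.6 and 1492 in Siglec-F int. All 6 libraries from tumour-injected mice lay above the highest naive library, and high library 1 stood closest to it. The difference from naive was 4.85 ± 1.09 for high and 5.76 ± 1.09 for int. Without high library 1 the first was 6.27, and without int library 2 the second was 6.40. Between high and int, the difference was -0.91 ± 1.09 and changed sign to 0.51 without high library 1.

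Crabp2, which passes retinoic acid on to the nuclear receptors (ENSMUSG00000004885.5; chromosome 3, 87948666 to 87953376), was likewise low in naive. It stood at 25.2, 62.5 and 25.1 in the libraries labelled naive, 193, 1323 and 1177 in Siglec-F high and 792, 458 and 846 in Siglec-F int. The 3 groups averaged 37.6 ± 21.6, 898 ± 615 and 699 ± 211, and naive overlapped with neither of the others. Relative to naive, Crabp2 differed by 4.26 ± 0.68 in high and 4.26 ± 0.68 in int. Without high library 1 its difference from naive was 5.15. High minus int was -0.01 ± 0.68, with 0.89 when high library 1 was left out and -0.50 when high library 2 was, so that its sign was not settled.

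The 2 binding proteins did not keep a constant proportion. Reads of Crabp1 per read of Crabp2 numbered 0.5, 0.625 and 0.3 in naive libraries 1, 2 and 3, and 0.341, 1.44 and 0.738 in the high libraries. In the int libraries they numbered 1.67, 0.812 and 1.76. The 95% counting interval was 0.250 to 0.459 in high library 1 and 1.36 to 1.52 in high library 2, and these do not meet. In the int libraries, library 2 (0.742 to 0.888) lay apart from library 1 (1.57 to 1.79) and library 3 (1.68 to 1.85). Counting intervals cover the error of counting reads only, and the naive ones are wide, the widest running from 0.305 to 1.24. Within their groups, Crabp1 was thus lowest relative to Crabp2 in high library 1 and int library 2, the libraries that stood apart, and the part of those libraries in the ratio was not tested.

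**Figure D1:**
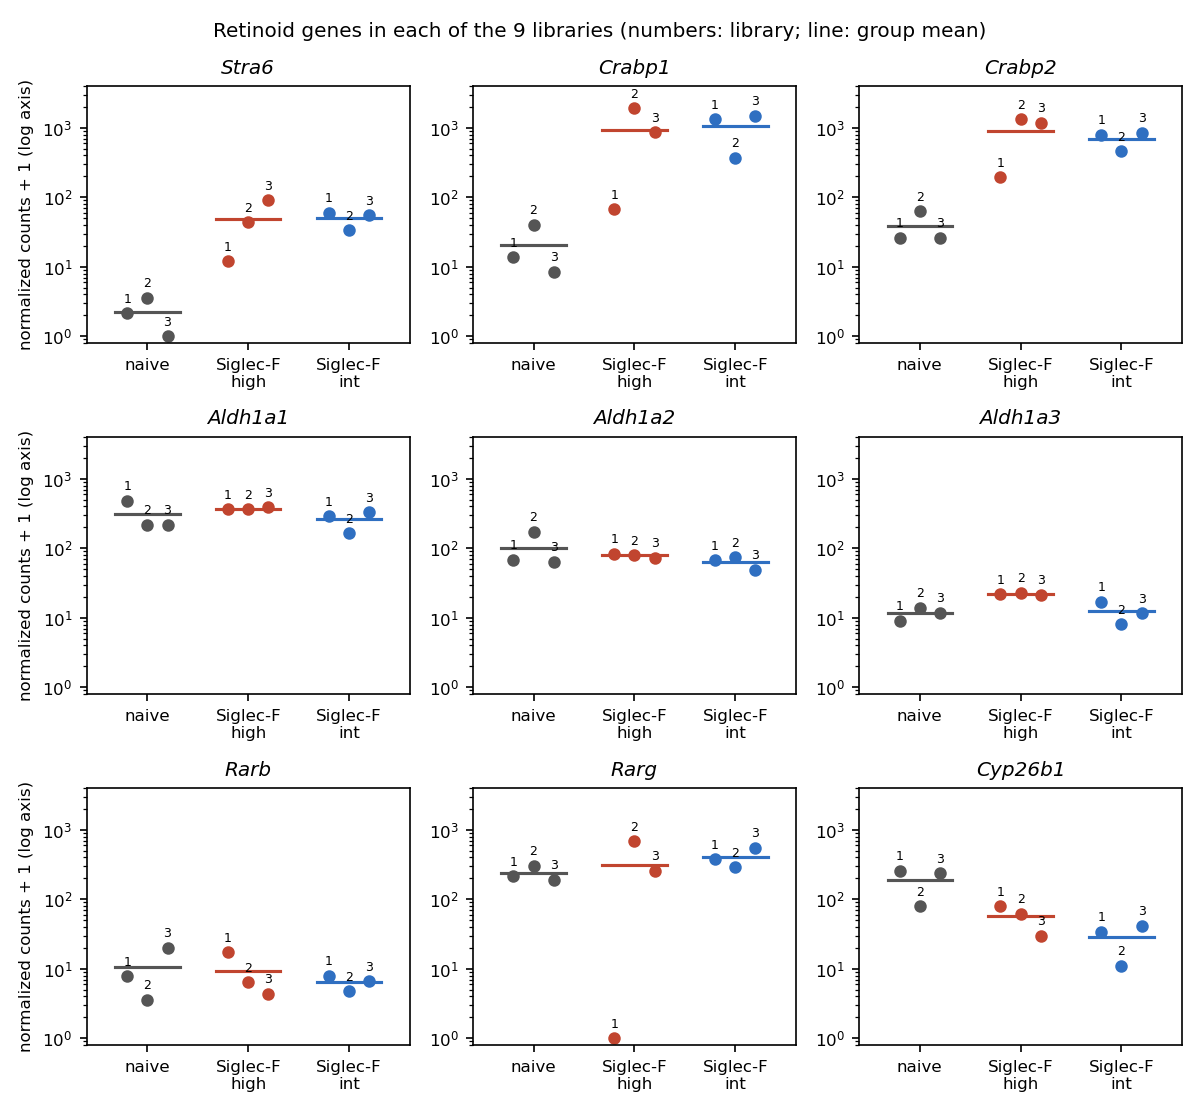
Normalized counts + 1 (log axis) of the 9 retinoid genes in each library, with points numbered by library, 3 per group, and a line at the group mean. Stra6, Crabp1 and Crabp2 lie higher in all 6 libraries from tumour-injected mice than in any naive library, Cyp26b1 lies lower in all int libraries, and Rarg is at 0 in high library 1.

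Aldh1a1, which oxidises retinal to retinoic acid (ENSMUSG00000053279.7; chromosome 19, 20492715 to 20643465), was present in all 9 libraries. Its normalized counts were 484, 216 and 217 in the libraries labelled naive, 362, 365 and 387 in Siglec-F high and 291, 165 and 333 in Siglec-F int. High overlapped with naive and lay just above int, with means of 371 ± 13.9 in high and 263 ± 87.2 in int (0.56 ± 0.39). Its difference of high from naive was 0.39 ± 0.39, with 0.77 without naive library 1 and 0.02 with the GC trend removed. For int against naive it was -0.17 ± 0.39. That value turned to 0.06 with TMM scaling, 0.10 with equal totals, 0.13 without int library 2 and 0.22 without naive library 1. Aldh1a7, a close paralog of Aldh1a1 whose reads may be shared with it, reached 206 in high library 1 and was at most 58.5 elsewhere.

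Aldh1a2, the enzyme that makes most retinoic acid in the embryo (ENSMUSG00000013584.5; chromosome 9, 71215789 to 71296243), also overlapped between groups. It stood at 67.7, 172 and 63.5 in the libraries labelled naive, 82.3, 79.4 and 72.5 in Siglec-F high and 66.6, 72.9 and 48.4 in Siglec-F int. Only naive library 2 lay above 100, and without it the difference of high from naive turned from -0.21 ± 0.45 to 0.25. For int against naive it was -0.54 ± 0.45, and -0.09 without naive library 2. Aldh1a2 is also a marker of mesothelium in the adult lung. The 12 mesothelial markers summed to 512 to 977 in naive, 353 to 556 in high and 203 to 384 in int, Calb2 among them being at 0 in naive, and their part in the levels of Aldh1a2 was not tested.

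Aldh1a3, the third enzyme of the step (ENSMUSG00000015134.15; chromosome 7, 66390890 to 66427517), was low everywhere and highest in Siglec-F high. Its values were 8.03, 13.0 and 10.9 in the libraries labelled naive, 20.8, 22.1 and 20.5 in Siglec-F high and 16.1, 7.16 and 10.8 in Siglec-F int. The high libraries overlapped with neither of the other groups, which overlapped with each other. The groups held 25, 80 and 81 reads of Aldh1a3. High differed from naive by 0.95 ± 0.59 and from int by 0.91 ± 0.59, while int and naive, at 11.3 ± 4.50 and 10.6 ± 2.51, differed by 0.04 ± 0.59.

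The 3 synthesis genes had the smallest SD relative to the mean of the set within Siglec-F high. The SD was 3.75% of the mean for Aldh1a1, 6.42% for Aldh1a2 and 3.96% for Aldh1a3. By the same measure Crabp1 varied by 97.4%, Crabp2 by 68.5% and Stra6 by 82.6% within that group. In the high libraries Aldh1a2 held 75, 133 and 85 reads and Aldh1a3 19, 37 and 24. The SDs of the synthesis genes there were no larger than the error of counting reads, so they cannot show an even level. Within naive the 3 synthesis genes varied by 50.5%, 60.8% and 23.6%, for Aldh1a3 on 7, 5 and 13 reads. The difference in spread between groups was not tested.

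Rarb, a retinoic acid receptor whose own gene is a classical target of retinoic acid (ENSMUSG00000017491.9; chromosome 14, 16430839 to 16819156), was scarce. It stood at 6.88, 2.61 and 19.2 in the libraries labelled naive, 16.5, 5.37 and 3.41 in Siglec-F high and 6.98, 3.79 and 5.69 in Siglec-F int. All 3 groups overlapped, on 30, 28 and 40 reads. The difference of high from naive was -0.08 ± 0.86, and it was -0.65 without high library 1 and 0.56 without naive library 3, so that neither rise nor fall could be detected at this depth. With equal totals it was 0.02. Top2b overlaps Rarb on the opposite strand and stood at 94.0 to 154 in naive and 1371 in high library 1. Reads of the pair cannot be told apart if strand was not used.

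Rarg, a retinoic acid receptor prominent in skin and cartilage (ENSMUSG00000001288.15; chromosome 15, 102234938 to 102257517), had no reads in 1 library. It stood at 216, 305 and 191 in the libraries labelled naive, 0, 689 and 258 in Siglec-F high and 378, 290.3 and 555 in Siglec-F int. The 3 groups overlapped, and high held both the lowest and the highest library of all. A count of 0 in high library 1 allows up to 3.29 normalized counts (3 reads). Of 2749 tested genes with at least 200 normalized counts in high libraries 2 and 3, only 2 had 0 reads in library 1, Rarg among them. That library set the direction: high minus naive was -2.05 ± 1.82 with it and 0.86 without it, and high minus int was -2.81 ± 1.82 with it and 0.10 without it. For int against naive the difference was 0.76 ± 1.82. That SE draws on the spread within all 3 groups, and so on the 0 in high library 1.

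Cyp26b1, which degrades retinoic acid (ENSMUSG00000063415.12; chromosome 6, 84571414 to 84593908), had lower means in both tumour groups than in naive, where Crabp1, Crabp2 and Stra6 had higher ones. Its values were 256, 78.2 and 236 in the libraries labelled naive, 79.0, 60.9 and 29.0 in Siglec-F high and 33.3, 10.1 and 40.5 in Siglec-F int. Within int, Cyp26b1 was lowest in library 2, as were Crabp1, Crabp2 and Stra6. Within high, it was highest in library 1, where those genes were lowest. The order was naive, high, int by the means of 190.1 ± 97.4, 56.3 ± 25.3 and 28.0 ± 15.9. Int lay wholly below naive, at -2.75 ± 0.66, or -2.16 without int library 2. High overlapped with naive, because high library 1 (79.0) exceeded naive library 2 (78.2), and differed from it by -1.67 ± 0.66. Leaving out naive library 2 gave -2.22, leaving out high library 3 gave -1.26, and removing the trend with GC content gave -0.54. High and int overlapped, and differed by 1.08 ± 0.66.

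**Figure D2:**
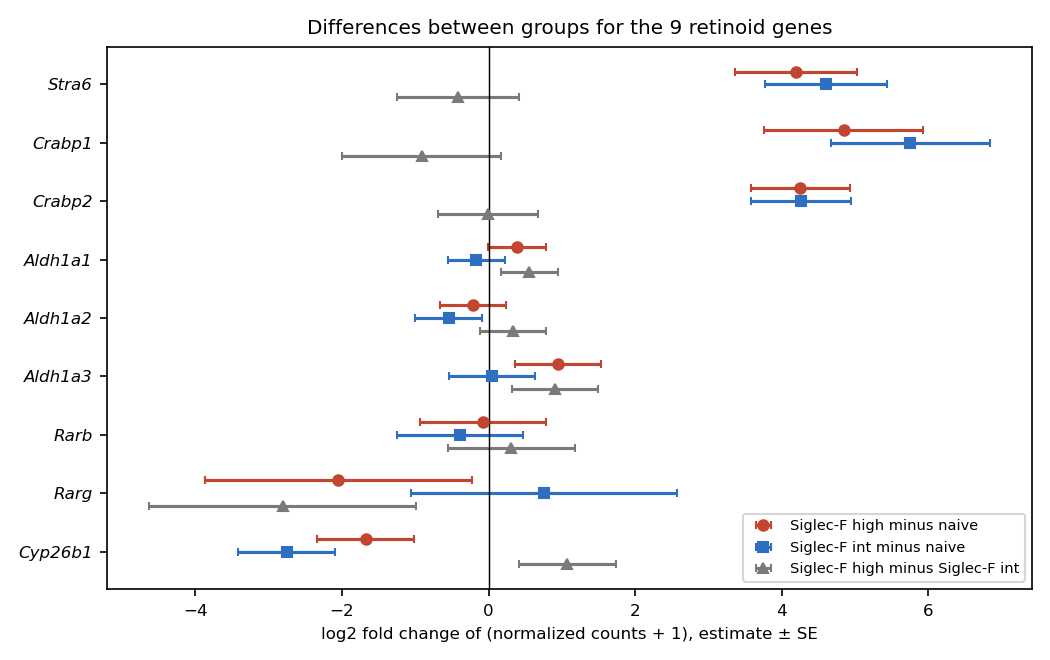
Log2 fold changes (estimate ± SE, of normalized counts + 1) of the 9 genes for the 3 comparisons. Stra6, Crabp1 and Crabp2 lie between 4.19 and 5.76 against naive, Cyp26b1 lies at -1.67 and -2.75, and the long bars of Rarg come from the library at 0.

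Over the set, 4 of 9 genes lay higher without overlap in Siglec-F high than in naive (Stra6, Crabp1, Crabp2 and Aldh1a3) and 0 lower. Of all 13642 genes tested, 20.2% lay higher and 26.3% lower in that way. In Siglec-F int 3 genes lay higher (Stra6, Crabp1 and Crabp2) and 1 lower (Cyp26b1), against 23.3% and 27.6% of all genes. Between high and int, 2 lay higher in high (Aldh1a1 and Aldh1a3) and 0 lower, against 5.52% and 5.75%. The genes were chosen with these levels known, so the counts carry no weight as evidence. Both comparisons with naive use the same 3 naive libraries, so their likeness is in part built in.

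The transcripts of 4 of the genes fall among the top 20% of tested genes by GC content, and 3 of these genes were lower in high library 1 than in the others of its group. Over all tested genes, library 1 minus the mean of libraries 2 and 3 had a median of 0.80 in the 20% of genes with the lowest GC content and -1.62 in the 20% with the highest, on the log2 scale. The difference was -4.27 for Crabp1 (57.4% GC), -2.40 for Stra6 (56.3%) and -8.72 for Rarg (58.8%). It was 0.89 for Cyp26b1 (56.7%), which thus went the other way. Rarb (47.8%) lay at 1.72, also well above genes of like GC content. Crabp2 (50.6%) lay at -2.69, where the median of genes of like GC content was -0.09, while Aldh1a1, Aldh1a2 and Aldh1a3 lay at -0.05, 0.12 and -0.03. With the GC trend removed, Crabp1 differed from naive by 6.03 and Crabp2 by 4.59 in Siglec-F high. The part of GC content in these values was not tested beyond that.

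**Figure D3:**
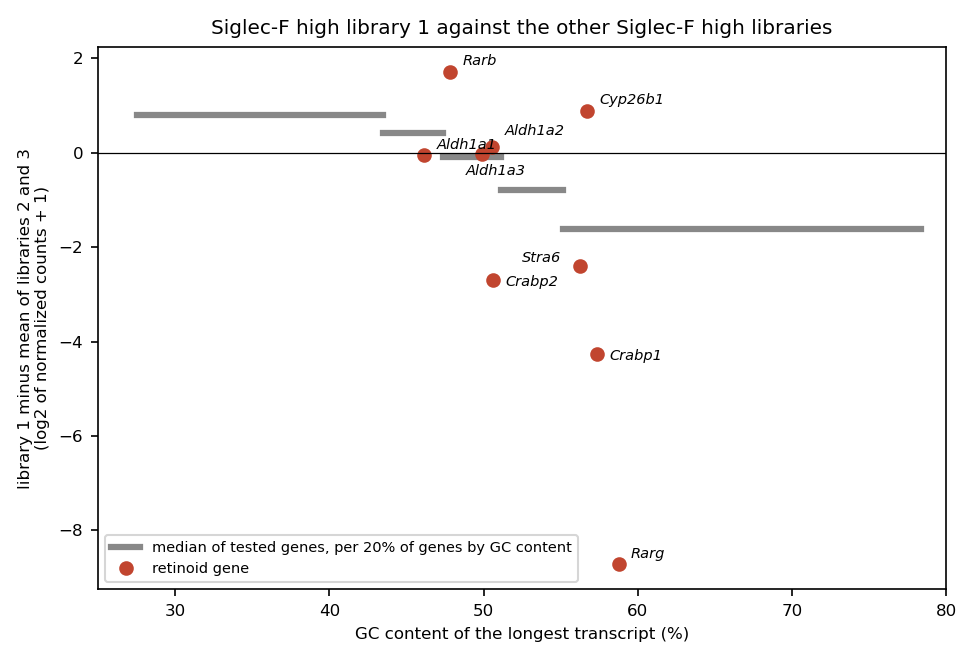
Siglec-F high library 1 minus the mean of high libraries 2 and 3 (log2 of normalized counts + 1) against the GC content of the longest transcript, with the 9 genes as points and the median of all tested genes per 20% of genes by GC content as bars. The bars fall from 0.80 to -1.62, and Rarg, Crabp1, Crabp2 and Stra6 lie below them while Cyp26b1 and Rarb lie above.

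Summed markers of some other cell types also differed between the groups. The 14 fibroblast and smooth muscle markers summed to 7310 to 8980 in the libraries labelled naive, 26205 to 38575 in Siglec-F high and 11102 to 27158 in Siglec-F int. One by one, 9 of the 14 lay wholly above naive in high and 1 wholly below. In int 6 lay above and 3 below. Of all tested genes, 20.2% lay above and 26.3% below in high, and 23.3% and 27.6% in int. The fibroblast and smooth muscle sum was lowest among the tumour groups in int library 2, where Crabp1, Crabp2 and Stra6 were lowest within int. It was highest of all in high library 1, where the same 3 genes were lowest within high. Dcn, the matrix proteoglycan decorin, stood at 104 to 281 in naive, 3476 to 5562 in high and 1129 to 3721 in int. Monocyte and macrophage markers summed to 10222 to 14002 in naive, 16402 to 27234 in high and 22791 to 94079 in int. The 10 alveolar macrophage markers summed to 2682 to 3908 in naive, 5476 to 7823 in high and 2755 to 3628 in int, with Ear10 at 0 in all groups. Of the 8 tested, 3 lay wholly above naive and 1 below in high, and 2 above and 2 below in int. Sums of endothelial and lymphocyte markers overlapped between all groups. The 10 dendritic cell markers summed to 4262 to 12694 in naive, 3424 to 16790 in high and 12688 to 48415 in int. Naive and int thus met only where naive library 2 (12694) just exceeded int library 1 (12688). Of the 9 dendritic markers tested, 3 lay wholly above naive and 0 below in int, and 1 above and 0 below in high. Neutrophil and epithelial sums overlapped between naive and high and lay below naive in int. No member of the fibroblast, pigment cell or monocyte and macrophage lists was at 0 throughout a group. In bulk RNA, fewer cells of a type and less RNA per cell cannot be told apart, and the part of these cells in the levels of the retinoid genes was not tested.

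**Figure D4:**
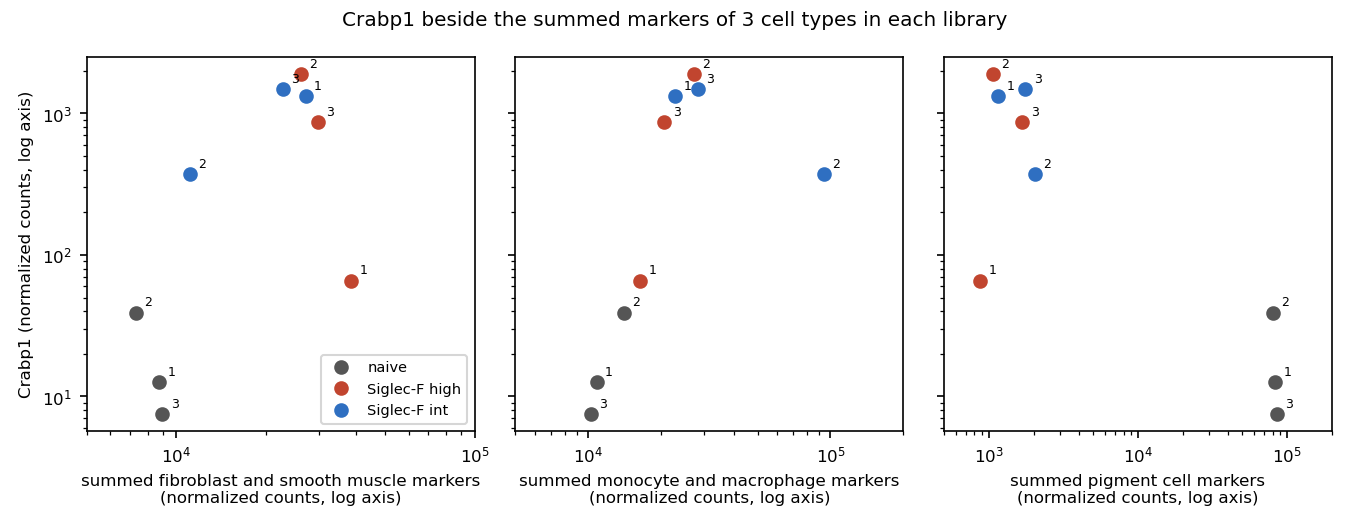
Crabp1 (normalized counts, log axis) in each library against the summed normalized counts (log axis) of fibroblast and smooth muscle markers, monocyte and macrophage markers, and pigment cell markers, with points numbered by library. High library 1, with Crabp1 at 65.8, has the highest fibroblast sum, 38575, and int library 2, with Crabp1 at 371.6, has the highest monocyte and macrophage sum, 94079.

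For the genes that averaged at least 50 in some group, the 3 tested genes with the nearest profile over the 9 libraries were taken from 9376 candidates, by root mean square distance on the log2 scale after centring. Nearest to Crabp1 were the Wnt ligand gene Wnt7b (0.69), the kinase gene Camk1g (0.78) and the homeobox gene Prrx2 (0.86). Wnt7b averaged 7.47, 153 and 179 in naive, high and int. Closest to Crabp2 were Col18a1 (0.46), a basement membrane collagen, Car5b (0.50), a mitochondrial carbonic anhydrase, and Htra1 (0.50), a secreted protease. Col18a1 averaged 64.1, 923 and 911. Rarg had Phldb1 (0.63), Cd37 (0.69) and Cdc42ep1 (0.69) beside it. Near Aldh1a1 were Rpap3 (0.21), Hmgn3 (0.22) and Fmo1 (0.23), and near Aldh1a2 were Exosc1 (0.18), Senp3 (0.25) and Cyp4b1 (0.27). Cyp26b1 was nearest to Odf3l1 (0.46), Wasf1 (0.53) and Mpzl1 (0.56). Odf3l1 averaged 142, 62.3 and 28.9. The remaining members were too low for this comparison.

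The other genes of the pathway moved in both directions between Siglec-F high and naive, and most of them were not called. Of 34 such genes 22 were tested, and limma called 4 higher and 5 lower, with a median of -0.83 against -0.11 over all genes. Of all tested genes 14.7% were called higher (1999) and 16.6% lower (2267), shares close to those of the list, and equal totals gave 2141 and 1613. Without high library 1 the list had 4 higher and 6 lower, with a median of -0.52, and with the GC trend removed the median was -0.14.

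Retinol enters the pathway through binding proteins and dehydrogenases, and 3 of the genes that rose are given here. Rdh10, the main retinol dehydrogenase of the embryo, rose from 25.7 ± 9.16 to 164 ± 9.46, by 2.68 ± 0.41 (limma adjusted p = 0.00149). Dhrs9, another retinol dehydrogenase, had 1 read in the naive group and 104 in high, a ratio of 67.8 (95% counting interval 11.9 to 2705, limma adjusted p = 0.00228). Rbp2, the retinol-binding protein of the intestine, had 0 reads in naive and 89 in high, at least 19.4-fold more against 3 reads over the naive group (limma adjusted p = 0.00269). Each of these 3 calls held in every alternative run in which the gene was tested.

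Pathway genes that fell in Siglec-F high numbered 5. Scarb1, a scavenger receptor that takes up lipoproteins and carotenoids, fell from 321 ± 133 to 45.8 ± 28.2 (-2.90 ± 0.51, limma adjusted p = 0.00288), and Fabp5, a fatty acid binding protein that also carries retinoic acid, from 1038 ± 222 to 262 ± 104 (-2.04 ± 0.38, limma adjusted p = 0.00382). Both calls held in every alternative run. Rxrb, a partner of the retinoic acid receptors, fell by 2.47 ± 0.63 on the log2 scale (limma adjusted p = 0.0153), and stood at 134, 276 and 123 in the naive and 9.87, 62.0 and 38.4 in the high libraries. That call was lost without naive library 2 and with the GC trend removed, where its value was -1.03. Ppard, a lipid-sensing nuclear receptor (-1.66 ± 0.54, limma adjusted p = 0.0392), and Dgat1, which can esterify retinol (-3.93 ± 1.29, limma adjusted p = 0.0404), each kept their call in 9 of 21 alternatives. Dgat1 stood at 0, 93.1 and 41.8 in the high libraries. Without high library 1 the values were -1.94 for Dgat1 and -0.96 for Ppard. Both lost their calls with equal totals, with TMM scaling and without any 1 of the naive or int libraries.

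Of the uncalled genes with the highest means, Dhrs3, which returns retinal to retinol, stood at 299 ± 24.5 in naive and 342 ± 82.9 in high. The alcohol dehydrogenase genes Adh5 and Adh1 differed by 0.17 ± 0.37 and -0.12 ± 0.36, and without high library 1 by -0.15 and 0.06. Rara, the third receptor gene, stood at 339, 266 and 267 in naive and at 6.58, 201 and 107 in high (-2.40 ± 0.93, limma adjusted p = 0.0715). Like Rarg it was lowest in high library 1, and its groups did not overlap. Without that library its difference was smaller, at -0.97, and was called.

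Between Siglec-F int and naive, 4 of the 22 tested pathway genes rose and 2 fell, with a median of -0.43 against -0.02 over all genes. Of all tested genes 12.0% were called higher (1634) and 10.3% lower (1402), while TMM scaling gave 2047 and 986 and equal totals 2007 and 897. These scalings raised the median of all genes by 0.21 and 0.25, and by 0.10 and 0.13 in the comparison of high with naive. Rdh10 again rose, to 121 ± 36.1 (2.20 ± 0.41, limma adjusted p = 0.00454), and did so in every alternative. Dhrs9, with 107 reads, had a ratio of 35.5 (6.23 to 1414, limma adjusted p = 0.0104), and Rbp2, with 52 reads, was at least 5.75-fold higher (limma adjusted p = 0.0181). The call of Rbp2 was lost without int library 1 or 3, with no filter on low values and with a pseudocount of 5, and that of Dhrs9 without int library 3. Stra6l, a second receptor for RBP4, had 6 reads in naive, all from library 3, and 116 in int (3.20 ± 0.96, limma adjusted p = 0.0369), a call kept in 11 of 20 alternatives. Its call was lost without naive library 1 or 2 or without any 1 of the int libraries.

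Fabp5 fell to 357 ± 130 (-1.57 ± 0.38, limma adjusted p = 0.0148) and Scarb1 to 94.7 ± 20.6 (-1.70 ± 0.51, limma adjusted p = 0.0361). Fabp5 lost its call without naive library 3 or int library 1 or 3. Scarb1 lost it without any 1 of the naive or int libraries, without high library 3, with TMM scaling or equal totals, and with no filter on low values. The list had 10 calls without high library 1, since the spread is estimated over all groups, and 2 and 1 without int libraries 1 and 3.

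**Figure D5:**
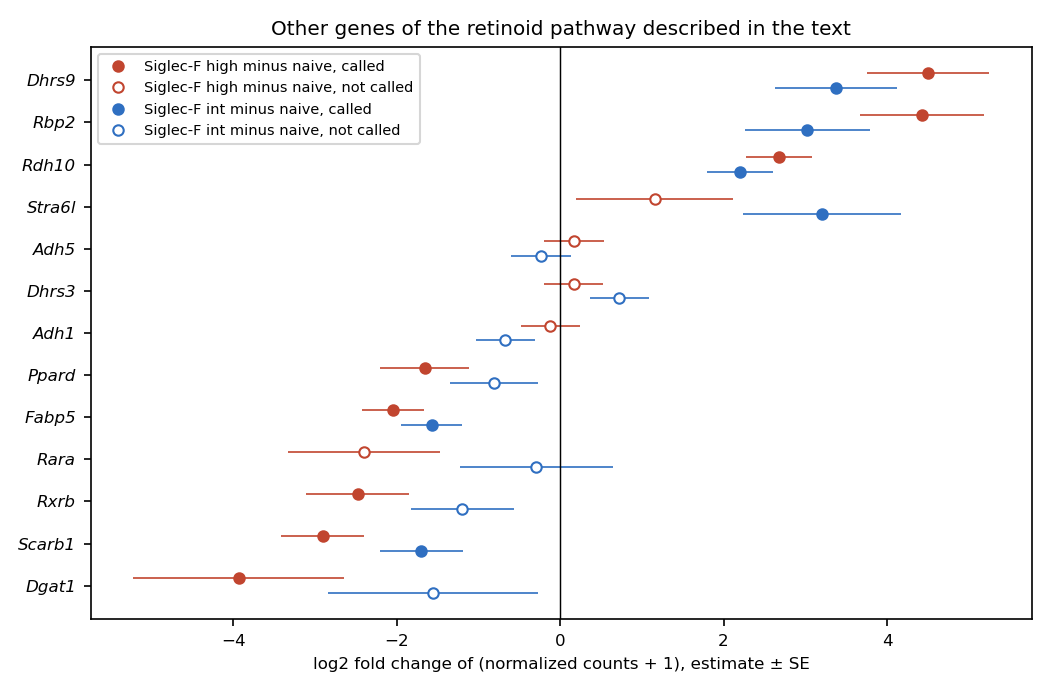
Log2 fold changes (estimate ± SE, of normalized counts + 1) of the 13 tested pathway genes described in the text, other than the 9, for Siglec-F high and Siglec-F int against naive, with filled points where limma's adjusted p was under 0.05. Rdh10 lies at 2.68 and 2.20 and Scarb1 at -2.90 and -1.70.

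Known targets of retinoic acid moved in both directions. Of 29 genes 21 were tested, and in Siglec-F high 5 rose and 2 fell, with a median of 0.50 against -0.11 over all genes, of which 14.7% rose and 16.6% fell. Those that rose included Lamb1, a laminin chain (3.34 ± 0.40, limma adjusted p = 0.000504), Wnt5a (4.31 ± 0.71, limma adjusted p = 0.00214), Rai14 (1.92 ± 0.32, limma adjusted p = 0.00220) and the ectoenzyme gene Cd38 (2.28 ± 0.38, limma adjusted p = 0.00225). Wnt5a stood at 1.15 to 15.6 in the naive libraries and at 97.2 to 202 in the high libraries. Bhlhe41, a circadian repressor, fell (-1.76 ± 0.36, limma adjusted p = 0.00604), as did Hoxb5 (-2.53 ± 0.84, limma adjusted p = 0.0418), whose call held in 4 of 20 alternatives and was lost with TMM scaling, with equal totals, without any 1 of the naive or int libraries, and without high library 3 or high library 1 (-1.83). Lamb1 and Wnt5a are also expressed by fibroblasts, whose summed markers differed between the groups as given above.

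In Siglec-F int the same 5 targets rose and 2 fell, with a median of 0.55 against -0.02 over all genes, of which 12.0% rose and 10.3% fell. Lamb1 was at 2.51 ± 0.40 (limma adjusted p = 0.00244) and Wnt5a at 3.35 ± 0.71 (limma adjusted p = 0.00828). Rai14 and Cd38 followed at 1.66 ± 0.32 and 1.86 ± 0.38, the latter without a call once the GC trend was removed. Bhlhe41 fell by 1.73 ± 0.36 on the log2 scale (limma adjusted p = 0.00753), and Rarres2, which encodes chemerin, by 1.38 ± 0.39 (limma adjusted p = 0.0283), a call lost without naive library 2 or 3 or any 1 of the int libraries, with equal totals and with the GC trend removed. Tgm2, the tissue transglutaminase and a classical target, was not called in high (0.50 ± 0.34) or int (0.83 ± 0.34). Bhlhe40, Hoxa5 and Itga4, the other abundant uncalled targets, lay at 0.36 ± 0.25, 0.86 ± 0.47 and 0.81 ± 0.55 in high, and at 0.29, 0.49 and 0.38 without high library 1.

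Siglec-F high and Siglec-F int were compared directly as well. limma called 0% of genes higher and 0% lower, with 591 genes at an unadjusted p under 0.05, and edgeR called 0 and DESeq2 6. None of the pathway genes or targets was called, with 4 of 22 and 2 of 21 at an unadjusted p under 0.05. Among the 9 genes the largest differences between these groups were those of Rarg and Cyp26b1, at -2.81 ± 1.82 and 1.08 ± 0.66, and the former was 0.10 without high library 1.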

How the data were processed

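Gene expression was measured by RNA-seq in 9 libraries of sorted lung cells in 3 groups of 3. Per the submitters' processing notes, reads were handled with TopHat2 2.1.0, HTSeq and DESeq2 1.10.0 and the GRCm38 build, and how each was set is not given in the sources used here. Each deposited signal value is a gene's read count divided by 1 factor per library. The smallest step of each column served as the worth of 1 read. Up to 2000 reads, 100% of values were then whole to within 0.05 read, and 1 read stood for 0.316 to 2.61 normalized counts.

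Of 54670 entries, 63 named as dates (0.219% of the total), 116 exact repeats and 42 that repeated a name together with its values were dropped. Of the 54449 genes left, 99.9% matched GENCODE M21, the source of positions and GC content. The 13642 genes with a mean of at least 5 were tested on the log2(value + 1) scale. A single limma 3.58.1 model (R 4.3.3), with a trended variance, took in all libraries. Tests were two-sided, Benjamini-Hochberg adjustment ran over all genes, and genes with an adjusted p under 0.05 were called. Intervals for read ratios are exact binomial at 95%, and floors take 3 reads.

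The 9 genes and all lists were chosen with earlier results of these data known. All 9 are described, and from the pathway and target lists every called gene is named, with the 4 uncalled ones of highest mean, apart from items not reported here. Alternatives were other pseudocounts, filters and scalings, the replicate number as a block, only the groups compared, each library left out, and the recovered reads in edgeR 4.0.16 or DESeq2 1.42.0. Chosen after seeing the data were leaving out both high library 1 and int library 2, and removal of the GC trend. The procedure was tested on simulated data. Libraries of 1 group were checked for repeats, and none was found (chi-square of 15.3 to 131 per degree of freedom).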

Additional observations from a re-analysis of the deposited data

How the results depend on the processing

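The 9 genes are described without a call. Under the 21 alternatives Crabp1, Crabp2 and Stra6 kept a positive and Cyp26b1 a negative difference from naive in both tumour groups. Leaving out high library 1 moved the differences of high from naive to 6.27 for Crabp1, 5.15 for Crabp2 and 4.99 for Stra6. It turned that of Rarg from -2.05 to 0.86, a change of sign. Moves were compared with the SD within groups of each gene over all 9 libraries. High library 1 is part of that SD, and Rarg had no reads in it, so the SD cannot judge the move of Rarg. The moves of Crabp1, Crabp2 and Stra6 were less than that SD, which for them also includes high library 1. Values moved by more than that SD for Cyp26b1 with the GC trend removed (-0.54 in high), and for Stra6 in high and int with a pseudocount of 5 (2.76 and 3.09), with edgeR (5.79 and 5.84) and with DESeq2 (5.85 and 5.86), and in high with the GC trend removed (5.29). The naive group held 2 reads of Stra6, so its fitted value follows the prior count.

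For high against naive, 4266 genes were called, 2509 with only the groups compared, and 2770 to 5101 with 1 library left out (fewest without naive library 1). For int against naive there were 3036, with 4808 for only the groups compared, 4623 without both high library 1 and int library 2, and 1401 to 5167 with 1 library left out. Those outside 1.5 times were 1939 without naive library 1, 5167 without high library 1, and 1497 and 1401 without int libraries 1 and 3. For high against int there were 0, and 6 with DESeq2. The pathway list had 9 calls in high, 7 to 11 with 1 library left out, and 6 in int, 3 with a mean of at least 20 and 1 to 10 with 1 library left out. DESeq2 fitted the same samples and genes by another model, while the other settings named here fitted fewer samples or genes. Beyond that the cause was not tested.

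The deviations of same-numbered libraries correlated at -0.03 to 0.14, and 2 of 9 pairs were over 0.1. Only high and int libraries, both from tumour-injected mice, could share mice. Their 3 pairs correlated at 0.12, 0.14 and 0.07, the highest of the 9. So few and weak correlations cannot settle whether the replicate numbers pair high with int. With the replicate block 4317, 3091 and 0 genes and 9, 6 and 0 pathway genes were called, and the estimates of the 9 genes were those without it. Depth limits Rarb, Aldh1a3 and the naive values of Stra6 most, with 30, 25 and 2 naive reads.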

Other observations

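Proteins that RAR, COUP-TF and related nuclear receptors work with, or that belong to those families, were described by a further list of 17 genes, all tested. In Siglec-F high 8 rose and 1 fell relative to naive, with a median of 0.55, and in Siglec-F int 5 rose and 0 fell, with a median of 0.67. Of all genes 14.7% rose and 16.6% fell in high, and 12.0% and 10.3% in int. Nrip1, a co-repressor that retinoic acid induces, rose by 4.58 ± 0.56 in high and 4.10 ± 0.56 in int (limma adjusted p = 0.000553 and 0.00120). The COUP-TF genes Nr2f1 and Nr2f2, orphan receptors of mesenchyme that can occupy the same DNA repeats, rose by 3.52 ± 0.49 and 2.08 ± 0.32 in high (limma adjusted p = 0.000998 and 0.00171) and by 2.73 ± 0.49 and 1.22 ± 0.32 in int (limma adjusted p = 0.00409 and 0.0226). The call of Nr2f2 in int was lost without naive library 1 or 3 or int library 1 or 3, and with the GC trend removed. Nr2f6 fell in high (-2.85 ± 0.99, limma adjusted p = 0.0493), with 2.19 normalized counts in high library 1 against 79.4 and 64.0 in libraries 2 and 3, a call kept in 8 of 21 alternatives and lost with equal totals, TMM scaling, edgeR or a pseudocount of 0.5 and without any 1 of the naive or int libraries. Without high library 1 its value was -1.35.

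Rlbp1, which binds retinal in the pigment epithelium and glia of the eye, had a mean below 5 and was not tested. It held 40 reads in the libraries labelled naive (5.73, 13.0 and 25.1 normalized counts), where pigment cell markers were abundant, and 1 read each in Siglec-F high and Siglec-F int.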
